A study of Mus musculus with 38 samples.

Results

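The effect of 20 µg of the herbal formulation Kal-1 on brown fat was examined in mice that ate a fattening diet throughout. The 12 arrays compared are those of group HF20 (6 arrays) and group HFC (6 arrays) at Weeks 3, 6, 9, 12, 15 and 18, of 38 arrays in the series. Both groups were C57BL/6J mice that were weaned at 3 to 4 weeks of age and then received a high fat, high sucrose diet with 60% of the calories from fat. HFC had this diet alone, HF20 had this diet with 20 µg of Kal-1, and LFC, a reference group on 10% of calories from fat, serves below as a reference. Brown adipose tissue was taken every 3 weeks, labelled with Cy3 and hybridised to 1-colour Agilent arrays. The labels give 1 array per group and week and do not say whether an array holds 1 animal or a pool, so the 6 weeks served as the replicates and each HF20 array was paired with the HFC array of its week. The p-values therefore measure the spread of the HF20 minus HFC difference between weeks, which mixes time with the variation between samples.

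Brown fat burns fatty acids and glucose in mitochondria and releases the energy as heat through uncoupling protein 1 (Ucp1). The fuel comes from the blood and from the tissue's own fatty acid synthesis, and both the thermogenic and the lipogenic programmes respond to diet and to sympathetic tone. The tissue is rich in capillaries and lies beside white fat, muscle and lymph nodes, so a dissected pad can hold RNA of these as well. In tissue samples fewer cells of a type and less RNA per cell cannot be told apart.

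Each level below is the log2 of a probe's processed signal minus the log2 of the 75th percentile of its array, so 0 is the level of the 75th percentile spot, and a difference is HF20 minus HFC on that scale unless a fold is named. Of 29411 gene names on the array, 21856 were tested, each through 1 probe that lay well above background on at least 6 arrays of the series. Of these, 12083 lay well above background on all 12 arrays. Ucp1 was among them, at a log2 level of 6.84 ± 0.74 (SD, n = 6) in HF20 and 6.85 ± 0.77 (SD, n = 6) in HFC, as were 17 of the 21 genes of a list that marks brown adipocytes. The share of spots well above background ranged from 43.6% to 78.8% per array, and the number of arrays, not a read depth, limits the precision.

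Brightness before any scaling was not the same on the arrays of the 2 groups. The 75th percentile of the processed signal was 857 intensity units in HF20 against 695 in HFC at Week 3, 770 against 163 at Week 6, and 43.2 against 48.3 at Week 9. It was 728 against 120 at Week 12, 689 against 239 at Week 15, and 97.5 against 49.8 at Week 18. HF20 was the brighter array in 5 of 6 pairs, by 1.25 ± 1.08 on the log2 scale (SD, n = 6 pairs), a value given as a description, since brightness also sorts the weeks. With 600 as the boundary between bright and dim arrays, both arrays of Week 3 were bright and both arrays of Weeks 9 and 18 were dim, and these 3 weeks are called alike weeks. At Weeks 6, 12 and 15, the unlike weeks, HF20 supplied the bright and HFC the dim array each time, so Kal-1 treatment and brightness side cannot be told apart there. The alike pairs were still not identical, since the HF20 array of Week 18 was 1.96-fold brighter than its partner. The share of spots well above background showed no such order (HF20 higher in 3 of 6 pairs, p = 0.938 in an exact two-sided sign-flip test). No pair shared a slide, and all pairs but that of Week 6 were scanned on 1 day.

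**Figure D1:**
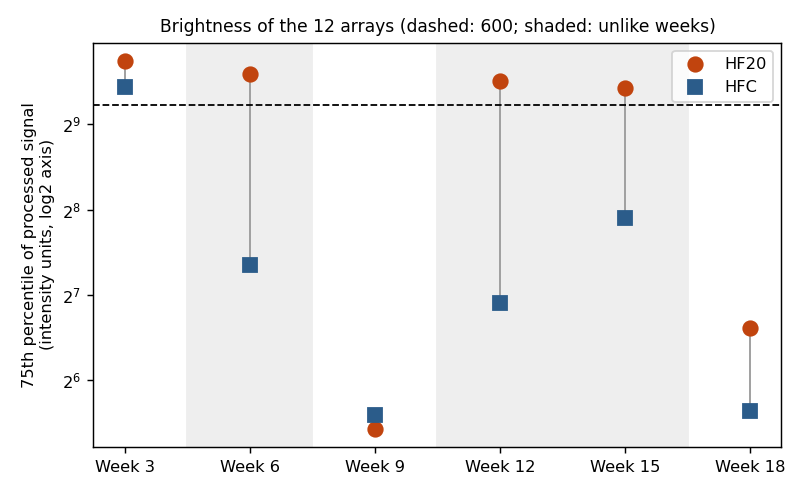
Brightness of the 12 arrays. The vertical axis gives the 75th percentile of the processed signal in intensity units on a log2 axis and the horizontal axis the week, with circles for HF20, squares for HFC, a grey line for each pair, a dashed line at 600 and shading for the unlike weeks. The pair of Week 3 lies above the line, the pairs of Weeks 9 and 18 lie below it, and at Weeks 6, 12 and 15 the line runs between the 2 arrays.

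Over all 6 weeks, no gene differed between HF20 and HFC at an adjusted p under 0.05 in limma with the week as a block (0 of 21856 higher, 0%, and 0 lower, 0%). No adjusted p lay below 0.261. Before adjustment, 1678 genes (7.68%) were higher and 2469 genes (11.3%) lower in HF20 at p under 0.05. In the 3 alike weeks, again no gene passed (0 higher, 0%, and 0 lower, 0%). Before adjustment, 113 genes (0.517%) were higher and 82 (0.375%) lower at p under 0.05, fewer than that threshold gives where no gene differs. This fit takes 1 estimate of the spread from all 6 weeks, so these p-values do not rest on the alike pairs alone. With 3 pairs, the lack of calls does not show that the groups were the same. The 3 unlike weeks stood in contrast, with 3102 genes (14.2%) higher and 4340 genes (19.9%) lower in HF20 at an adjusted p under 0.05. The difference between the kinds of week was itself tested, and it was called for 2295 genes, of which 1184 (5.42%) had the larger HF20 minus HFC value in the alike weeks and 1111 (5.08%) the smaller. Those 2295 calls depended on 5 of the 6 weeks, since there were 0 without the pair of Week 3, 9, 12 or 15 and 674 without that of Week 6. The calls in the unlike weeks numbered 2104 without Week 15, 3805 without Week 12 and 0 where Weeks 3 and 15 were both left out. The unadjusted count over all weeks was 6233 without Week 3, 1504 without Week 6, 1150 without Week 12 and 1074 without Week 15. That of the alike weeks was 426 without Week 3 and 354 without Week 18. Of the calls in the unlike weeks, 41.7% were higher in HF20, and this split was 57.6% under quantile normalization and 24.6% under normexp background correction. The median difference of all genes over all weeks was -0.20, 0.04 and -0.40 under the 3 scalings, so directions are read relative to these.

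The same genes were compared between bright and dim arrays of LFC, a group with no part in the HF20 to HFC comparison. LFC had 4 bright arrays and 6 dim ones, at different time points. Across the 21856 genes, the LFC difference of bright minus dim arrays correlated with the HF20 minus HFC difference of the unlike weeks at r = 0.872 and with that of the alike weeks at r = 0.0753. Genes within a sample are not independent, the points share array design and base composition, and the values are given as a description without a p. By single week the correlation was 0.725, 0.714 and 0.846 at Weeks 6, 12 and 15, and -0.183, -0.0787 and 0.212 at Weeks 3, 9 and 18. Of the 3102 genes called higher in the unlike weeks, 3091 (99.6%) were also higher in bright than in dim LFC arrays, with a median of 1.88 there against 1.98 in HF20 minus HFC. In the alike weeks their median was 0.11 and 2136 of them (68.9%) were higher in HF20. Of the 4340 genes called lower, 4225 (97.4%) were lower in bright LFC arrays, and their median was -2.69 in the unlike weeks and -0.01 in the alike weeks, where 2219 of them (51.1%) were lower in HF20.

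**Figure D2:**
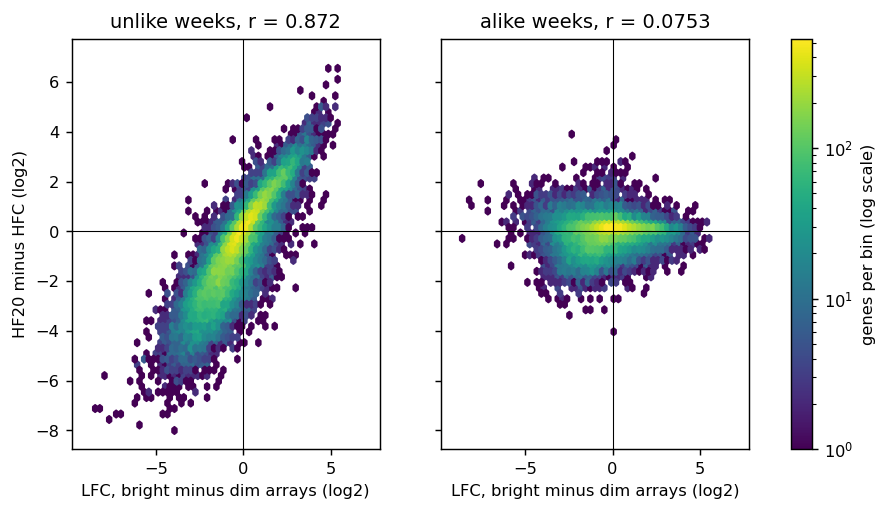
HF20 minus HFC difference against the difference between bright and dim LFC arrays for 21856 genes, both on the log2 scale, with the colour giving the number of genes per bin on a log scale. In the unlike weeks (left, Weeks 6, 12 and 15) the cloud runs along a rising diagonal (r = 0.872), and in the alike weeks (right, Weeks 3, 9 and 18) it lies flat around 0 (r = 0.0753).

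The thermogenic and fuel-burning genes of brown fat showed this split. Of 21 brown adipocyte and thermogenic genes, 13 were higher in HF20 at an adjusted p under 0.05 in the unlike weeks and 0 in the alike weeks. The list's median difference was 2.52, 2.92 and 3.16 at Weeks 6, 12 and 15, and -0.49, 0.19 and -0.29 at Weeks 3, 9 and 18, beside 2.98 between bright and dim LFC arrays. All genes tested had medians of -0.48 in the unlike and 0.07 in the alike weeks. In the unlike weeks 14.2% of them were called higher and 19.9% lower, the shares to set beside each list here and below. Ppargc1a, which encodes the coactivator that drives mitochondrial biogenesis, had levels of 2.92, 1.51, 0.09, 3.53, 3.88 and 0.20 in HF20 at Weeks 3, 6, 9, 12, 15 and 18. Its levels in HFC were 3.83, -1.01, -0.10, 0.31, -0.36 and -0.46 at the same weeks. The 4 bright HF20 arrays and the single bright HFC array held the 5 highest of these 12 values, and the groups overlapped. Ppargc1a was thus higher in HF20 by 3.33 ± 0.47 (SE), or 10.0-fold, in the unlike weeks (limma, adjusted p = 0.00554) and differed by -0.02 ± 0.47 (SE) in the alike weeks. Dio2, the deiodinase that makes active thyroid hormone within the tissue, was higher by 4.12 ± 0.53 (SE) in the unlike weeks (adjusted p = 0.00461) and by 0.03 ± 0.53 (SE) in the alike weeks, a difference with no call. Adrb3, the adrenergic receptor through which sympathetic nerves act on brown fat, followed with 4.42 in the unlike and -0.04 in the alike weeks, and it was saturated on the HF20 array of Week 12.

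Ucp1 itself was not called in either kind of week. It was saturated on 4 of 6 HF20 arrays and 1 of 6 HFC arrays, namely the 5 bright ones, where the reading cannot rise further. Its HF20 levels were 6.28, 6.56, 8.32, 6.59, 6.75 and 6.57 and its HFC levels 6.57, 6.31, 8.24, 7.01, 6.04 and 6.95 in week order, so the groups overlapped over their whole range. The difference over all weeks was -0.01 ± 0.29 (SE, adjusted p = 0.988 in limma). Only Weeks 9 and 18 compare 2 unsaturated readings on alike arrays, and they gave 0.08 and -0.38. Cidea, a lipid droplet protein abundant in brown fat, and Fasn, the fatty acid synthase, were saturated on the same 5 arrays, and their values over all weeks were -0.16 ± 0.34 (SE) and -0.13 ± 0.31 (SE). At Weeks 6, 12 and 15 only the HF20 array of the pair was saturated, so for Ucp1, Cidea and Fasn those differences are lower bounds. Their values over all weeks therefore do not show that the groups were the same.

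Fatty acid synthesis genes behaved like the thermogenic ones, with 14 of 20 higher in HF20 in the unlike weeks at an adjusted p under 0.05 and 0 of 20 in the alike weeks. Elovl6, which elongates the products of fatty acid synthase, had HF20 levels of 3.67, 4.02, 1.96, 5.98, 5.87 and 0.54 and HFC levels of 3.71, 0.24, 1.13, 0.82, -0.11 and 0.92. The pair of Week 3 differed by -0.04, whereas the pairs of Weeks 6, 12 and 15 differed by 3.78, 5.15 and 5.98. Elovl6 was higher by 4.97 ± 0.50 (SE) in the unlike weeks (adjusted p = 0.00397), and the alike weeks gave 0.13 ± 0.50 (SE). Scd1, the desaturase that makes oleate, was higher by 3.16 ± 0.48 (SE) in the unlike weeks (adjusted p = 0.00626, saturated on 2 HF20 arrays) and gave 0.05 ± 0.48 (SE) in the alike weeks. Srebf1, the transcription factor of the lipogenic programme, was positive at 6 of 6 weeks, by 0.11, 2.78, 0.37, 3.47, 2.97 and 0.70 in week order, with the HF20 array of Week 6 saturated, and did not pass over all weeks (adjusted p = 0.261). Of 25 cholesterol synthesis and uptake genes, 14 were higher and 1 lower in the unlike weeks, with none called in the alike weeks. Sqle, the epoxidase of that pathway, gave 0.98 ± 0.33 (SE) in the unlike weeks and did not pass.

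Mitochondrial fuel oxidation followed the same pattern. In the unlike weeks 16 of 23 fatty acid oxidation genes, 23 of 32 respiratory chain genes (with 1 lower) and 15 of 18 pyruvate dehydrogenase and citric acid cycle genes were higher in HF20. No member of these lists had an unadjusted p under 0.05 in the alike weeks, where few of all genes did (0.517% higher and 0.375% lower). Acads, a short-chain acyl-CoA dehydrogenase, differed by 0.77, 3.20, -0.07, 3.51, 3.99 and 1.24 in week order. Its values of the unlike weeks exceeded those of each alike week. Among 18 glucose uptake and glycolysis genes, 10 were higher and 2 lower in the unlike weeks, and the median of the list was 2.04 there and 0.24 in the alike weeks.

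**Figure D3:**
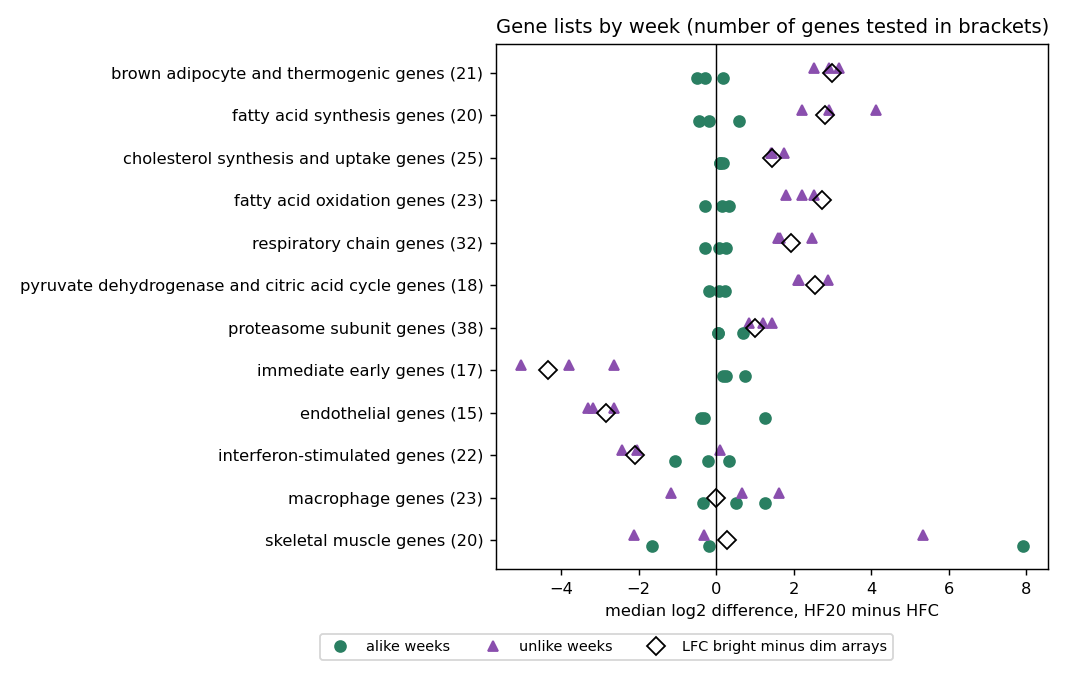
Median log2 difference, HF20 minus HFC, of 12 gene lists. Each point is 1 week (green circles, alike weeks; purple triangles, unlike weeks), the open diamond is the median difference between bright and dim LFC arrays, and the number of genes tested stands in brackets. For the metabolic lists the triangles lie near the diamond and the circles near 0, whereas for muscle genes Week 3, an alike week, lies at 7.93.

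Immediate early genes, which are switched on within minutes of a stimulus or of handling, showed the opposite sign. Of 17 tested, 16 were lower in HF20 in the unlike weeks at an adjusted p under 0.05, against 19.9% of all genes. None passed in the alike weeks, where the median was 0.49. There 7 members were higher and 0 lower at 3 of 3 weeks, against 9.41% and 7.42% of all genes. All 17 lay well above background on all 12 arrays, and of the 12083 genes that did so 1455 were higher and 440 lower at those 3 weeks. Fos, a subunit of the AP-1 transcription factor, had HF20 levels of 0.05, -2.23, 3.82, -2.79, -0.37 and 4.53 and HFC levels of -2.68, 6.46, 4.02, 4.24, 6.12 and 3.42 in week order. The 5 bright arrays, of either group, ranged from -2.79 to 0.05 and the 7 dim arrays from 3.42 to 6.46, without overlap. Fos was lower in HF20 by 7.40 ± 0.66 (SE), or 169-fold, in the unlike weeks (limma, adjusted p = 0.00397), and the alike weeks gave 1.22 ± 0.66 (SE). In LFC, the list's median difference of bright minus dim arrays was -4.35. Zfp36, which destabilises inflammatory mRNAs, and Egr2, a zinc finger factor, differed by -5.41 and -4.76 in the unlike weeks, both called. Their values in the alike weeks were 0.42 and 0.49.

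Several immediate early genes are known targets of CREB, the factor that binds the cyclic AMP response element TGACGTCA. The promoters of the list were searched for these letters as a description. The letters, which read the same on both strands, were found within the 250 bases before the start site in 2 of 13 immediate early genes with a RefSeq promoter (15.4%) and in 417 of all 27025 promoters (1.54%). Both stretches are shown, from RefSeq on GRCm38.p6, with the element in capitals. Btg2, an antiproliferative gene, lies on the minus strand of chromosome 1 (chr1:134079284-134079351), and Dusp1, a phosphatase that switches off MAP kinases, lies on the minus strand of chromosome 17 (chr17:26508578-26508645).
Btg2: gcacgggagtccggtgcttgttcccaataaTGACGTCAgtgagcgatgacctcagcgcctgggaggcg
Dusp1: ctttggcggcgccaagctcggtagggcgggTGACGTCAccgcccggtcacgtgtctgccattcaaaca
The match describes these letters and is not a measured binding site. The shares, which rest on 2 genes of the list, were not compared in a test. The part of CREB in the differences of this list was not tested. Btg2 differed by -3.72 ± 0.48 (SE) in the unlike and 0.43 ± 0.48 (SE) in the alike weeks, and Dusp1 by -1.73 ± 0.47 (SE) and 0.10 ± 0.47 (SE).

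Endothelial genes were likewise lower in the unlike weeks, with 15 of 15 members called, against 19.9% of all genes. None was called in the alike weeks, where the list's medians were -0.30, -0.40 and 1.26 at Weeks 3, 9 and 18. Cdh5, the cadherin of endothelial junctions, had levels of 1.80 to 2.31 on the bright HF20 arrays of the unlike weeks and 4.84 to 5.55 on their HFC partners. At Weeks 3, 9 and 18 its differences were -0.80, -0.46 and 0.81. In LFC the list's median difference of bright minus dim arrays was -2.85. Of 9 erythroid genes tested, 5 were lower in the unlike weeks, against 19.9% of all genes, and none in the alike weeks. Among these 5 were the adult globins Hbb-b1 and Hba-a1, saturated on 6 and 5 of 6 HFC arrays and each on 4 of 6 HF20 arrays. In the unlike weeks both were saturated on every HFC array and on the HF20 array of Week 12. With both arrays of Week 12 at the ceiling, the difference there is set by the scaling. These calls thus rest in part on saturated readings, and no fold is given.

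Few genes differed the same way in the alike and the unlike weeks. Of those tested, 725 (3.32%) were higher and 719 (3.29%) lower in HF20 at 6 of 6 weeks. Among the 12083 genes well above background on all 12 arrays these were 601 and 172. Those with the highest and lowest moderated t are described next, and none of them passed over all weeks (adjusted p = 0.261 each). Eml2, a microtubule-associated protein, had the highest t. Its HF20 levels were 1.79, 2.34, 0.72, 1.96, 1.40 and 1.58 and its HFC levels 0.53, 1.43, -0.30, 0.18, -0.39 and -0.28 in week order. HF20 was higher within each week, while the ranges of the groups overlapped through HFC Week 6 and HF20 Weeks 9 and 15. The difference was 1.44 ± 0.29 (SE) over all weeks, or 2.71-fold, and 1.38 ± 0.36 (SE) in the alike against 1.5 ± 0.36 (SE) in the unlike weeks, where alone it passed (adjusted p = 0.0216). The test of the difference between the 2 kinds of week gave an adjusted p of 0.895. LFC lay between at 0.59 ± 1.09 (SD, n = 6), and its bright arrays exceeded its dim arrays by 0.88.

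St6galnac6, a sialyltransferase of glycolipids, was the second of these. It stood at 1.49, 2.19, 0.54, 1.55, 1.54 and 0.32 in HF20 and at 1.06, 0.13, -0.67, -0.79, -0.71 and -1.40 in HFC. HFC Week 3 alone lay above any HF20 value, namely those of Weeks 9 and 18. The difference was 1.67 ± 0.35 (SE) over all weeks and 1.12 ± 0.35 (SE) in the alike weeks. Aars2, the mitochondrial alanyl-tRNA synthetase, differed by 1.52, 1.89, 1.47, 2.35, 2.53 and 0.19 in week order. Aldh3b2 (an aldehyde dehydrogenase), Prodh (proline dehydrogenase of mitochondria) and Dhrs4 (a peroxisomal carbonyl reductase) were higher at 6 of 6 weeks too, by 2.13 ± 0.52, 1.86 ± 0.51 and 2.0 ± 0.56 (SE) over all weeks. In the alike weeks these 3 gave 0.89, 0.76 and 0.66, and for Aldh3b2 and Dhrs4 the difference between the kinds of week passed (adjusted p = 0.0308 and 0.0302). The other 4 genes with the highest t were Isoc2b, Pisd-ps3, Tmem42 and Iah1.

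Among the genes lower at 6 of 6 weeks, Bat2d (now Prrc2c, an RNA-binding protein of stress granules) had HF20 levels of 0.51, 0.25, 1.19, 0.27, -1.15 and -0.37 and HFC levels of 1.1, 1.70, 2.13, 2.18, 0.61 and 1.15. HF20 was lower within each week, and the groups overlapped. The difference was -1.36 ± 0.30 (SE) over all weeks, -1.02 ± 0.33 (SE) in the alike weeks and -1.70 ± 0.33 (SE) in the unlike weeks, and LFC arrays showed 0.19 between bright and dim. Arhgap15, a GTPase-activating protein for Rac, gave -0.65, -4.67, -0.93, -5.79, -4.77 and -2.27 in week order, and here the kinds of week differed (adjusted p = 0.0286). Of the other 8 with the lowest t, 7 are predicted genes or clones without a known role or near-copies of other genes, such as Hmgb1l (-2.13 ± 0.53, SE), a near-copy of Hmgb1 whose value is uncertain for that reason, and 1 is an olfactory receptor, Olfr1384 (-1.94 ± 0.43, SE).

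**Figure D4:**
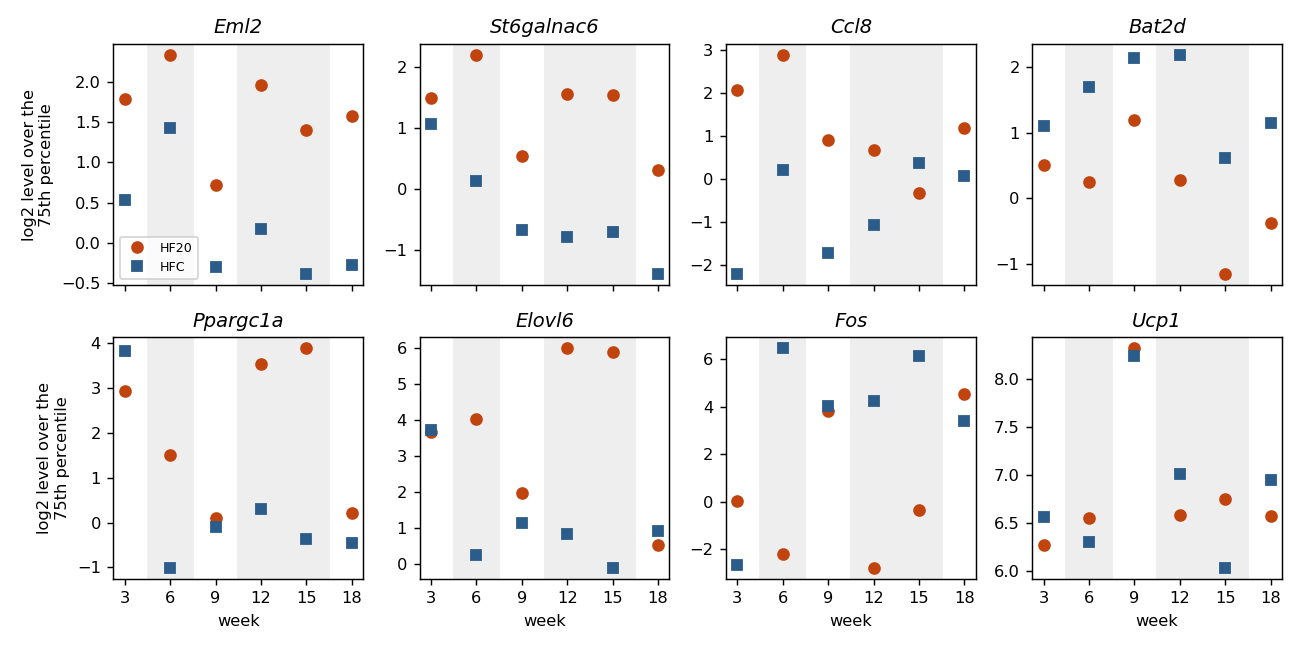
Levels of 8 genes on the 12 arrays, as log2 over the array's 75th percentile, by week, with circles for HF20, squares for HFC and shading for the unlike weeks. Eml2 and St6galnac6 are higher and Bat2d lower in HF20 at 6 of 6 weeks, Ppargc1a and Elovl6 are higher and Fos lower in the shaded weeks, Ccl8 is higher in 5 of 6 weeks, and Ucp1 overlaps throughout.

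The groups were also compared without regard to pairing. For 10 genes (0.0458%) the lowest HF20 value lay above the highest HFC value, and for 24 genes (0.11%) the highest HF20 value lay below the lowest HFC value. Akt1s1, an inhibitor subunit of mTOR complex 1 that was singled out after its values were seen, was among the first (0.98 over all weeks, p = 0.0202 before adjustment). Ifit1, an interferon-induced protein that binds viral RNA, was among the second and lay well above background on all 12 arrays. Its HF20 levels were -0.37, -0.15, -0.02, -2.76, -2.09 and -0.59 and its HFC levels 1.74, 0.53, 0.22, 0.05, 1.01 and 0.08. The difference was -1.60 ± 0.47 (SE) over all weeks (adjusted p = 0.261), with -1.01 ± 0.60 (SE) in the alike weeks. Rsad2, an antiviral enzyme, was negative at 5 of 6 weeks (-1.40, -1.83, -1.44, -2.81 and -3.67, with 0.02 at Week 18). The 22 interferon-stimulated genes as a list held 8 members lower in the unlike weeks, against 19.9% of all genes, and none called in the alike weeks. There 5 members were negative and 3 positive in 3 of 3 weeks, against 7.42% and 9.41% of all genes. The list's median was -0.38 in the alike weeks and -2.09 between bright and dim LFC arrays.

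In the alike weeks, 2056 genes (9.41%) were higher and 1622 (7.42%) lower in HF20 at 3 of 3 weeks. None passed the adjusted test, so the genes with the highest t are described without a call. Chi3l3 (now Chil3), a secreted lectin of alternatively activated macrophages, differed by 2.25, 2.27 and 3.82 at Weeks 3, 9 and 18. Ltf, the iron-binding lactoferrin of neutrophil granules, differed by 1.19, 2.14 and 3.11. Ccl8, a chemokine that attracts monocytes, differed by 4.29, 2.62 and 1.12, and it was also positive at Weeks 6 and 12 (2.68 and 1.73) but not at Week 15 (-0.68). Cebpd, a transcription factor of inflammation and early adipogenesis, differed by 1.5, 0.95 and 1.62. The mean differences of the 4 genes were 2.78 ± 0.70, 2.15 ± 0.54, 2.68 ± 0.80 and 1.36 ± 0.42 (SE), with unadjusted p of 0.00614, 0.0064, 0.0141 and 0.0164 in limma and an adjusted p of 1 for each. In the unlike weeks, Ltf and Cebpd were lower in HF20 (-2.86 and -3.74, adjusted p = 0.0112 and 0.00412), and the difference between the kinds of week passed for Chi3l3, Ltf and Cebpd (adjusted p = 0.0499, 0.0275 and 0.027). Fam129b (now Niban2) behaved in the same way, with 1.24 ± 0.35 (SE) in the alike and -2.74 ± 0.35 (SE) in the unlike weeks. On the lower side, Slc25a40, a mitochondrial glutathione carrier, differed by -0.30, -1.26 and -1.82, and Zfp160, a zinc finger gene, by -0.34, -0.96 and -1.54.

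Beside these genes stands the macrophage list, of which 8 of 23 members were higher and 0 lower at 3 of 3 alike weeks, against 9.41% and 7.42% of all genes. Of the 23, 18 lay well above background on all 12 arrays, and of the 12083 genes that did so 1455 were higher and 440 lower at those weeks. The list's medians were 1.27, 1.61, 0.52, 0.66, -1.17 and -0.33 in week order, so Weeks 15 and 18 lay on the other side, and the LFC median was -0.02 between bright and dim arrays. In the unlike weeks 1 member was called, namely Tnf, an inflammatory cytokine, which was lower (-4.90, adjusted p = 0.0138 in limma). Between bright and dim LFC arrays Tnf differed by -4.90 as well. Lgals3 (galectin-3) differed by 1.78, 1.35 and 1.08 in the alike weeks and Lyz2 (lysozyme) by 1.75, 0.25 and 1.32, and at Week 15 they stood at -2.76 and -0.86. Cd68, the macrosialin of phagocytes, gave 0.35 ± 0.51 (SE) over all weeks, positive at 5 of 6. The summed signal of the list, in units of the 75th percentile, ranged from 21.4 to 92.7 in HF20 and from 27.6 to 66.8 in HFC, so the groups overlapped, and the part of macrophage content in the differences of Chi3l3 and Ccl8 was not tested. Lymphocyte genes varied by week, with a median of 2.40 at Week 3 and -3.11 at Week 15, and Cd3g, a subunit of the T cell receptor complex, gave -0.47 ± 1.05 (SE).

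Proteasome subunit genes had small differences to one side. Of 38 tested, 15 were higher and 0 lower in HF20 at 3 of 3 alike weeks, against 9.41% and 7.42% of all genes. At 6 of 6 weeks 11 were higher and 0 lower, against 3.32% and 3.29% of all genes. Of the 38, 37 lay well above background on all 12 arrays, and such genes leaned to the higher side as a whole. Of 12083 such genes, 1455 were higher and 440 lower at 3 of 3 alike weeks, and 601 and 172 at 6 of 6 weeks. The list's medians were 0.04, 0.86, 0.03, 1.45, 1.20 and 0.69 in week order, beside 1.01 between bright and dim LFC arrays. In the unlike weeks 21 were higher at an adjusted p under 0.05, against 14.2% of all genes. None was called in the alike weeks or over all weeks. Psmd8, a subunit of the regulatory lid, differed by 0.32, 1.73, 0.19, 3.05, 3.07 and 0.77, or 1.52 ± 0.50 (SE). The HF20 array was the brighter one at Weeks 3 and 18 as well. The list's median over the alike weeks was 0.27 under scaling to the 75th percentile, 0.16 under quantile normalization and -0.06 under normexp, so the sign depended on the background correction. Cytosolic ribosomal protein genes had medians of 0.18 in the alike and -0.35 in the unlike weeks.

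Skeletal muscle genes separated single arrays rather than groups. The median level of 20 muscle genes was 3.92 and 4.40 on the HF20 arrays of Weeks 3 and 15 and between -4.82 and 0.44 on the other 10 arrays. Ckm, the muscle creatine kinase, had HF20 levels of 3.03, -7.41, -2.28, -1.43, 3.12 and -5.33 and HFC levels of -7.96, -4.57, -1.90, -1.29, -3.14 and -4.22. Its HF20 levels of Weeks 6 and 18 and its HFC levels of Weeks 3, 6 and 18 lay below every spot well above background on their arrays. These are floor readings whose size is not exact. Acta1, skeletal actin, differed by 8.23 at Week 3 and 4.42 at Week 15 and by -4.00 to -0.05 at the remaining weeks. Over all weeks Ckm gave 2.13 ± 1.76 (SE) and Acta1 1.1 ± 1.47 (SE), and neither passed. Without Weeks 3 and 15 these became -1.12 and -1.51. The summed signal of the list ranged from 12.2 to 675 in HF20 and from 8.96 to 81.0 in HFC, in units of the 75th percentile. Enolase 3 (Eno3), a glycolytic enzyme of muscle, followed with 3.65 at Week 3 and 4.30 at Week 15, and the part of muscle RNA in other differences of these 2 weeks was not tested. White adipocyte genes had a median of 0.08 in the alike and 1.57 in the unlike weeks, beside -0.46 between bright and dim LFC arrays. Of 11 tested, 6 were higher and 2 lower in the unlike weeks at an adjusted p under 0.05, against 14.2% and 19.9% of all genes. The LFC median covers members of either sign. Rbp4 and Retn gave 3.66 and 2.70 in LFC and 3.24 and 3.42 in the unlike weeks. Sncg and Nrip1 gave -1.63 and -0.46 in LFC and 0.68 and -0.07 in the unlike weeks. Adipoq, the adipocyte hormone adiponectin, was higher by at least 3.37 on the log2 scale in the unlike weeks (adjusted p = 0.00397 in limma), a bound because it was saturated on all 3 HF20 arrays there. Both arrays of Week 3 were saturated too, and the unsaturated alike pairs of Weeks 9 and 18 gave 0.34 and -0.24. Lep, the satiety hormone leptin, gave 1.46 ± 0.79 (SE) over all weeks without a call.

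**Figure D5:**
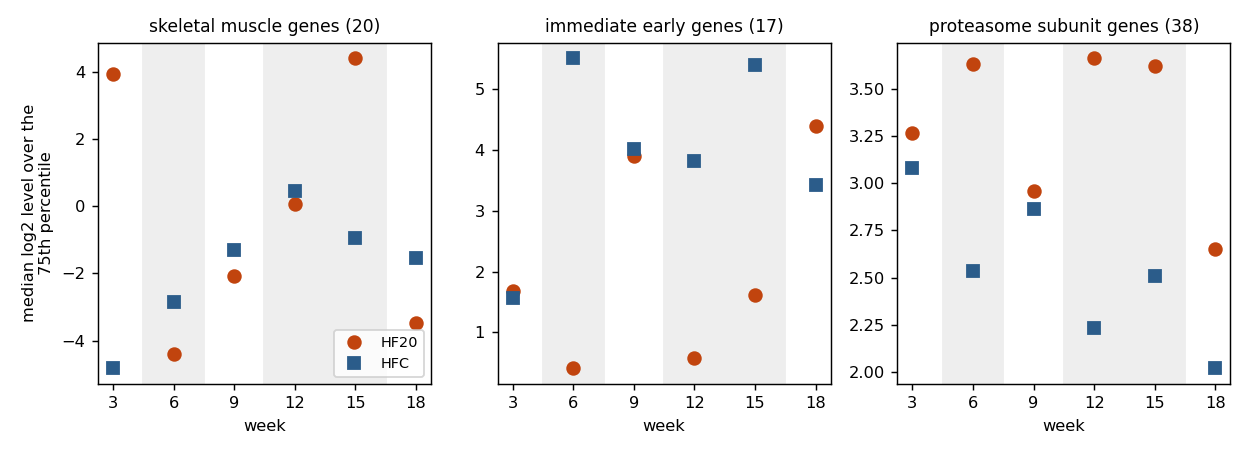
Median log2 level of 3 gene lists on each array, over the array's 75th percentile, by week, with circles for HF20, squares for HFC and shading for the unlike weeks. Muscle genes are high on the HF20 arrays of Weeks 3 and 15, immediate early genes are low on bright arrays of either group, and proteasome genes differ mostly in the shaded weeks.

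Of the 3 genes with the smallest p over all weeks, 2 were mostly not well above background in HF20. Olfr52, an olfactory receptor, differed by -2.85 ± 0.43 (SE) and lay well above background on 1 HF20 array and 3 HFC arrays. With signals raised to the background floor it differed by -1.71 over all weeks and by -0.38 in the alike weeks. Tnfrsf9, a costimulatory receptor of T cells, differed by -2.96 ± 0.55 (SE), with 1 HF20 array and 5 HFC arrays well above background, and A930013B10Rik, a clone without a known role, by -3.05 ± 0.57 (SE), with 4 and 6. Each had an adjusted p of 0.261. Olfactory receptors, the odour sensors of the nose, were mostly dim (22 of 347 well above background on all 12 arrays). Of the 347 tested, 112 were lower and 0 higher in HF20 in the unlike weeks at an adjusted p under 0.05, against 19.9% and 14.2% of all genes, and 22 were lower and 0 higher at 6 of 6 weeks, against 3.29% and 3.32%. Their median was -2.55 in the unlike weeks and -0.71 in the alike weeks, with 0.93, -0.01 and -3.35 at Weeks 3, 9 and 18. The HFC array of Week 18 had the highest median level of the 12 arrays, -1.28 against -5.33 on its HF20 partner. On that HF20 array Olfr52 and Olfr945 read -5.33 as well, and the lowest spot well above background lay at -3.01. The -5.33 is therefore a floor value and not a measured level, and the size of the Week 18 difference is not exact. Both arrays of Week 18 were dim, but the HF20 array was 1.96-fold brighter. Under normexp the median of the alike weeks was -0.07. The part of brightness in the low values of dim genes at Week 18 was not tested.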

How the data were processed

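The deposited scanner files of 38 arrays hold the authors' processed signal of each spot in intensity units, corrected for background within the array and not scaled between arrays. The file headers name Feature Extraction 10.5.1.1 and the submitters' processing notes version 9.1. A deposited table gives log2 values, which the authors made with the LFC array of each time point as the baseline. Its Week 15 columns matched the scanner files in spot order only, so it served as an alternative. From the intensities, the log2 signal minus the log2 75th percentile of its array was computed, outlier-flagged spots were left out (a fit then drops the pair of that week, which touched 56 genes), and 1 probe per gene name, that with the highest mean level, was used. HF20 was compared with HFC in limma 3.58.1 (R 4.3.3; lmFit and eBayes, two-sided, Benjamini-Hochberg threshold 0.05) with the week as a block, once over all weeks and once with separate coefficients for alike and unlike weeks, on 5 and 4 residual degrees of freedom. The fits were tested on simulated data. No 2 of the 12 arrays correlated above 0.979. Of 40628 probes, 33288 (81.9%) received a current RefSeq symbol, and names are those of the array unless said. Genes were named by rule: the 10 highest and 10 lowest moderated t over all weeks among genes well above background on all 12 arrays with 1 direction at 6 of 6 weeks, the 3 smallest p, the 8 highest and 8 lowest t of the alike weeks, the 2 smallest p of each of 24 gene lists, and 16 fixed genes, of which a part is described and some are not reported here. Btg2 and Dusp1 (shown for their promoters) and Akt1s1 were chosen after their values were seen. The comparison, the boundary of 600 and the lists were chosen with earlier results of these data known. Lists whose members are not described in the report (endoplasmic reticulum and heat shock stress, circadian clock, cell cycle, collagen and matrix, lipid uptake and vomeronasal receptor genes) are given in the closing section.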

Additional observations from a re-analysis of the deposited data

Results flagged for a closer look

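For 23 of the genes named in the text, the HF20 minus HFC difference of the alike weeks departed from that of the unlike weeks (limma interaction term, adjusted p under 0.05), and each value below is the alike difference minus the unlike one on the log2 scale. Of all genes tested, 5.42% had the larger and 5.08% the smaller value in the alike weeks by this test. The named genes were chosen in part by values of these same data, so the 23 are not compared with those shares. Genes of thermogenesis, lipid supply and mitochondria had the smaller HF20 minus HFC difference in the alike weeks. The value was -4.46 for Adrb3, -4.08 for Dio2, -3.34 for Ppargc1a and -3.46 for Adipoq, which was saturated on all 3 HF20 arrays of the unlike weeks, so its size is not exact. Among genes of lipid handling it was -4.84 for Elovl6, -3.11 for Scd1, -2.68 for Srebf1 and -3.18 for Plin5, a lipid droplet protein that couples droplets to mitochondria. Acads gave -2.92, Dhrs4 -2.68 and Aldh3b2 -2.49. Genes of stimulus response and inflammation had the larger difference in the alike weeks. Fos gave 8.62, Zfp36 5.83, Egr2 5.25 and Btg2 4.15. Cebpd gave 5.10, Ltf 5.01, Chi3l3 4.06 and Fam129b 3.97. The value was 3.79 for Arhgap15, 3.22 for Fn1 (fibronectin), 3.03 for Cdh5 and 2.42 for Hmgb1l. Brightness side and week kind coincide by construction, so the kind of week and the brightness of the arrays cannot be told apart in these values, and no such value was called without the pair of Week 3, 9, 12 or 15.

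Of 126 groups of 6 arrays screened, 12 held an array whose gap to its nearest neighbour exceeded Dixon's 95% critical value, where chance alone flags about 1 in 20. Most were the HFC array of Week 3, the single bright array of its group. Its level there was 1.26 for Prodh, 3.83 for Ppargc1a, 3.71 for Elovl6, 5.15 for Adrb3, 5.48 for Srebf1, -2.68 for Fos, -6.41 for Tnf and -2.16 for Acta1, and the median level of the brown adipocyte list was 2.57. The HF20 array of Week 9, the dimmest of HF20, stood apart for Fasn (8.50) and Ucp1 (8.32), which were not saturated on it. The HFC array of Week 15 stood apart for Akt1s1 (-1.97). The part of brightness in these levels was not tested.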

How the results depend on the processing

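Across 25 alternatives, the adjusted calls over all weeks and in the alike weeks stayed at 0. The other counts moved, and unless the setting tests fewer samples or genes the cause was not tested. The 4147 genes at an unadjusted p under 0.05 over all weeks became 1376 under normexp, 1698 in the authors' table as deposited, 1061 in that table without Week 15, 8078 without a filter on dim probes, 6332 with signals raised to the background floor, 7246 in a fit of 30 arrays, 679 in that fit with brightness side as a covariate, 100 with the log2 75th percentile as a covariate, 7652 with slide as a random block, 1504 with scan day as a block, 1314 with array weights and 2551 without Weeks 3 and 15, an alternative chosen after seeing the data. Leaving out 1 pair gave 1074 to 6233. The 195 genes of the alike weeks became 416 under quantile normalization, 17 under normexp, 61 in the authors' table, 304 with every probe tested, 96 without the replicate block, 304 with brightness side in 30 arrays, 955 with array weights and 100 by the methods' t-test, and 162 to 426 without 1 pair. The 7442 adjusted calls of the unlike weeks became 12119 under normexp, 0 in the authors' table, 2054 in it without Week 15, 13984 without a filter, 11454 with the floor, 3724 without the replicate block, 0 with brightness side in 30 arrays, 0 with the log2 75th percentile, 12963 with array weights, 1879 by the methods' t-test and 0 without Weeks 3 and 15, with 2104 to 9210 without 1 pair. The 2295 calls of the difference between kinds of week became 618 under normexp, 493 without a filter, 3816 among genes well above background on 12 arrays, 5836 with the floor, 674 with scan day and 9724 with array weights. They became 0 in the authors' table as deposited and without its Week 15, without the replicate block, in 30 arrays with or without brightness side, with the log2 75th percentile, with slide and without Weeks 3 and 15, and were 0 to 2513 without 1 pair. With the Week 15 columns of the authors' table read in array order, the 4 counts were 4053, 191, 7427 and 2355. As a check of the pairing by week, the deviations of same-week arrays correlated at -0.351 to 0.305, and 1 of 6 HF20 arrays correlated best with its own week, so the week is shared by design only. The brightness difference was 0.975 to 1.53 on the log2 scale without 1 pair. Alike brightness defined as under 2-fold apart chose the same weeks. Scan day as a block gave the same counts as leaving out the pair of Week 6. Each array of that pair was alone on its scan day among those compared, so this setting drops the pair. Of 1887 values of 56 named genes under the alternatives, 68 had the opposite sign, 59 of them of differences that were smaller than their own SE and were not called. The other 9 are given here. With brightness side in 30 arrays they were -0.33 for Sqle, 1.49 for Dusp1, -0.19 for Plin5 and 0.73 for Hspb1 in the unlike weeks and -0.14 for Lep over all weeks. With the log2 75th percentile they were -0.25 for Lep and 1.02 for Bub1 (unlike weeks). Sqle was -0.25 under normexp and Ckm -1.12 without Weeks 3 and 15. A further 143 values lost their call and 5 gained one. No difference term was fitted with the methods' t-test.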

Other observations

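Genes of lipid uptake and lipid droplets resembled those of fatty acid synthesis. Of 19 tested, 8 were higher and 2 lower in HF20 in the unlike weeks at an adjusted p under 0.05 and none was called in the alike weeks, with medians of 1.12 and 0.16 beside 1.59 between bright and dim LFC arrays. Plin5 differed by 3.49 in the unlike and 0.31 ± 0.33 (SE) in the alike weeks, and since it was saturated on the HF20 arrays of Weeks 6 and 12 the first value may understate the difference. Fabp4, the abundant fatty acid binding protein of adipocytes, was saturated on all 12 arrays and is given no fold. It is among the 2 lower calls. A reading at the ceiling minus a higher 75th percentile is lower by construction, so that call says nothing about its expression.

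For the next 4 lists the medians in the unlike weeks lay nearer to the -0.48 of all genes tested, of which 14.2% were called higher and 19.9% lower. Of 18 circadian clock genes, 2 were higher and 1 lower there (median -0.17). Of 17 endoplasmic reticulum and heat shock stress genes, 1 was higher and 3 lower (median -0.72), among them Asns, the asparagine synthetase of the amino acid response, at 2.18 and Hspb1, a small heat shock protein, at -3.15. Of 23 cell cycle genes, 1 was higher and 5 lower (median -0.57), and Bub1, a kinase of the spindle checkpoint, stood at -3.15. Of 21 collagen and matrix genes, 0 were higher and 3 lower (median -0.14). In the alike weeks the medians of these 4 lists were -0.21, 0.09, 0.25 and 0.09, and none of their members was called. Fn1 differed by 1.93, 0.60 and 1.33 in the alike weeks and by -1.37, -1.09 and -3.34 in the unlike weeks. Vomeronasal receptor genes, which are pheromone sensors and were mostly dim here, had 20 of 54 members lower and 0 higher in the unlike weeks (median -2.46), a median of -0.55 in the alike weeks and -1.11 between bright and dim LFC arrays.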
